A study of Rattus norvegicus with 42 samples.

Results

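Gene expression in whole blood of 6 rats with permanent middle cerebral artery occlusion (MCAO) treated with tissue plasminogen activator (tPA) was compared with that of 6 rats given anesthesia only. These 12 of the 42 arrays of the study were chosen by their titles, MCAO24T and Anaes with a replicate number, and every probe set was kept except the array's own controls. The study held 7 groups of 6 male Sprague-Dawley rats weighing between 280 and 350 g, with 1 Affymetrix whole-genome rat array per rat, and blood of all groups was taken by cardiac puncture under isoflurane. In the tPA-treated permanent-MCAO group (MCAO24T) a suture blocked the artery until blood was drawn at 24 h, and recombinant human tPA at 3.3 mg/kg was given into the peritoneum at 3 h. The anesthesia group (Anaes) had neither occlusion nor tPA. Beside these stand untreated permanent-MCAO (MCAO24), reperfused-MCAO with tPA (MCAO2T, the suture withdrawn at 2 h), tPA without MCAO (tPA) and naive rats (Normal). No group was described as sham-operated, so occlusion and the surgery it needs cannot be told apart here. The tPA was a human protein given to rats at a single dose and time. The labels give each array as a replicate of its group and say nothing of litters or days, so p values measure the spread between these rats.

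In the suture model a filament is passed from the carotid artery to the origin of the middle cerebral artery, and without reperfusion the tissue it supplies becomes infarcted. tPA is a serine protease that turns plasminogen into plasmin, which dissolves fibrin, and it also acts on matrix proteases and on cells. RNA of whole blood comes from leukocytes, platelets and reticulocytes together. Blood cells change within hours of a stroke, as neutrophils and monocytes are released and lymphocytes become fewer.

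Of 31042 probe sets, 571 were called between tPA-treated permanent-MCAO and anesthesia rats, 1.84% of those tested. A probe set was called at p of at most 0.01 and a fold of at least 1.2, the thresholds the study used between pairs of groups, with limma on the 12 arrays. Higher in tPA-treated permanent-MCAO were 409 probe sets (1.32%), and lower were 162 (0.522%). Without any variance model, all 6 treated rats lay above all 6 anesthesia rats in 108 probe sets (0.348%) and below them in 35 (0.113%). With 1 probe set per gene, 232 of 14217 genes were called higher (1.63%) and 118 lower (0.83%), and the median log2 difference over these genes was 0.0027. After Benjamini-Hochberg adjustment 2 probe sets passed 0.05, while 1874 had an unadjusted limma p under 0.05. Where nothing differs, about 310 of 31042 probe sets meet a p of at most 0.01 before any fold threshold. Many of the 571 calls may therefore be due to chance.

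Both adjusted results were higher in the treated rats. Bcap31, an endoplasmic reticulum membrane protein that sorts newly made proteins, had log2 levels of 10.63, 10.76 and 10.87 (lowest, median and highest) in tPA-treated permanent-MCAO rats, against 10.17, 10.26 and 10.40 in anesthesia rats. The 2 ranges did not overlap, and the difference was 0.48 ± 0.05 on the log2 scale (SE, adjusted p = 0.027, limma). Cd44, the hyaluronan receptor of leukocytes, was at 9.27, 9.37 and 9.59 in treated rats and at 8.36, 8.69 and 8.77 in anesthesia rats by 1 of its probe sets, again without overlap (difference 0.76, adjusted p = 0.027). The brightest Cd44 probe set differed by 0.45, with an adjusted p of 0.431, so the size depends on the probe set. Both were named because they passed adjustment, after their values were seen.

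The treated rats were more spread than the anesthesia rats. The mean correlation of an array with the others of its group was 0.962 to 0.980 in tPA-treated permanent-MCAO and 0.981 to 0.987 in anesthesia, and the lowest value belonged to MCAO24T rat 1. MCAO24T rat 4 carried heart transcripts, with a log2 level of 6.04 for the heart myosin gene Myh6. The other treated rats were at 2.25 to 2.90 and anesthesia rats at most at 2.31. Of the 15 heart muscle markers measured, none was called. With rats 1 and 4 left out together 891 probe sets were called, and the part of heart RNA in single genes was not tested.

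Genes of platelets formed the first group. Platelets carry RNA from megakaryocytes, and 22 of 23 measured platelet markers had a positive difference, 4 of them called higher and none lower. The median difference was 0.54, beside 0.0027 over all genes. Over all genes 1.63% were called higher and 0.83% lower, and every list below is read beside these shares. They include many genes of low level. With probe sets of a mean under log2 4 left out, 439 of 13113 probe sets were called, 313 higher and 126 lower. The mean level of the list per rat was 9.32 to 10.3 in tPA-treated permanent-MCAO rats and 8.89 to 9.57 in anesthesia rats, so the groups overlapped. In RNA of mixed blood, more platelets and more RNA per platelet cannot be told apart, as holds for every cell type below.

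Clu (clusterin), which platelets store in their granules, had log2 levels of 10.10, 10.59 and 10.95 in treated rats, against 9.32, 9.59 and 9.85 in anesthesia rats. Every treated rat was above every anesthesia rat, with a difference of 0.97 ± 0.16 and an exact permutation p of 0.00216, the smallest the 924 divisions of 12 rats allow (adjusted p = 0.15, limma). Itgb3, the beta subunit of the platelet fibrinogen receptor, was at 11.83, 12.46 and 12.83 in treated and 11.25, 11.59 and 11.71 in anesthesia rats. Its ranges did not overlap either (0.85 ± 0.17, exact p = 0.00216, adjusted p = 0.186). Tubb1, the beta tubulin of the platelet's marginal band, differed by 0.43 ± 0.08, also with no overlap. P2ry12, the ADP receptor that clopidogrel blocks, was at 7.21, 7.95 and 8.93 in treated and 5.88, 6.98 and 7.59 in anesthesia rats. Here 5 of 6 treated rats lay above the highest anesthesia rat (1.23 ± 0.32, exact p = 0.00433, adjusted p = 0.365).

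Among the defining platelet markers, Pf4 and Itga2b were not called. Pf4, platelet factor 4, had levels of 13.53 to 14.07 in treated rats and 13.32 to 14.02 in anesthesia rats, and its difference of 0.11 was not called (exact p = 0.444). Itga2b, the alpha partner of Itgb3, differed by 0.53 (exact p = 0.0887) and its lowest treated rat lay below all anesthesia rats.

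Several further genes known from platelets were called, and all but F11r were picked after their values were seen. F11r, junctional adhesion molecule A, was among the 12 largest differences, at 6.78, 7.36 and 8.73 in treated and 5.20, 5.38 and 6.57 in anesthesia rats. The groups did not overlap (1.96 ± 0.40, a 3.88-fold difference, exact p = 0.00216). Slc6a4, the serotonin transporter through which platelets take up serotonin, was at 9.40, 10.28 and 10.95 in treated rats, against 8.76, 8.97 and 9.79 in anesthesia rats (1.2 ± 0.29, exact p = 0.00649). Slc18a2, which loads serotonin into granules, differed by 1.18 ± 0.32. Gucy1a1 and Gucy1b1, the 2 subunits of the nitric oxide receptor guanylate cyclase, were higher by 1.36 ± 0.33 and 1.29 ± 0.32. Abcc4, a transporter of cyclic nucleotides also found in dense granules, differed by 1.21 ± 0.24 without overlap.

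**Figure D1:**
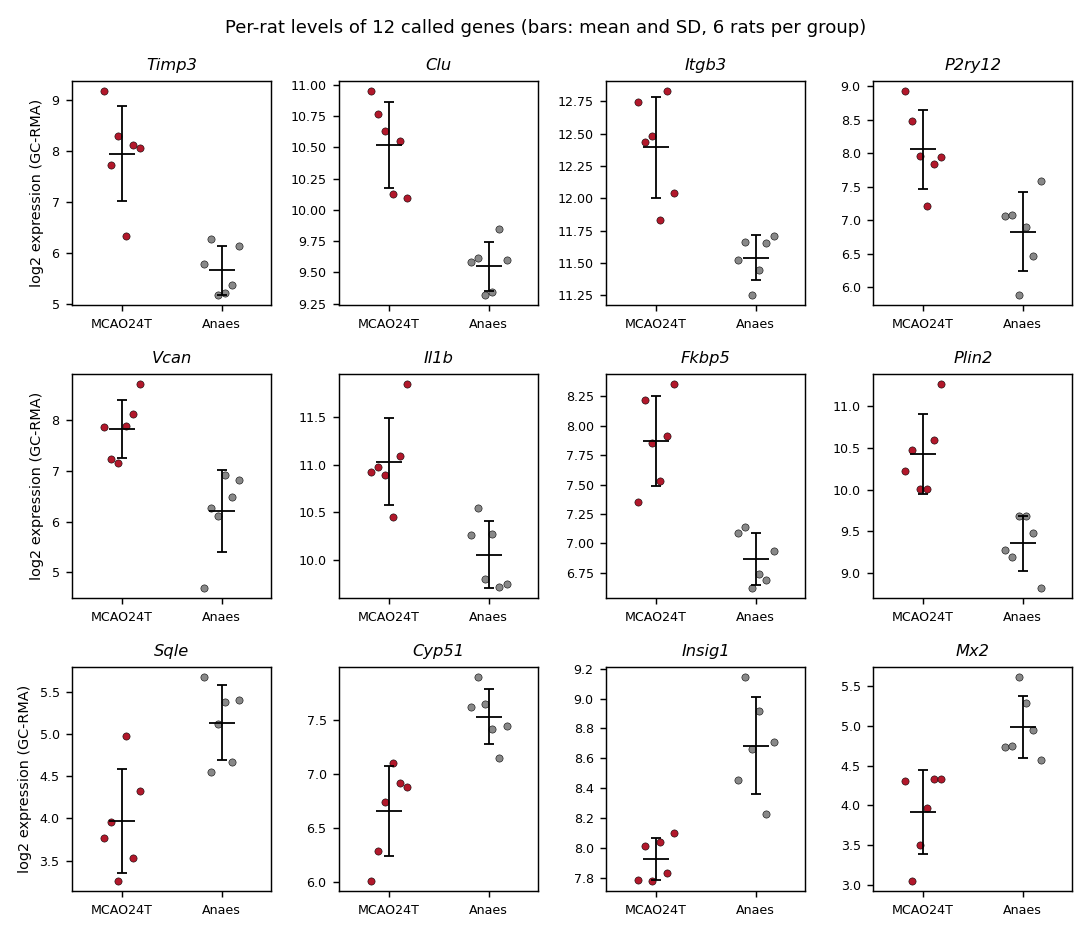
Log2 expression (GC-RMA, vertical axis) of 12 called genes in each of 6 tPA-treated permanent-MCAO rats (MCAO24T) and 6 anesthesia rats (Anaes), where points are rats and bars are mean and SD. The 2 groups are apart for Timp3, Clu, Itgb3, Vcan, Fkbp5, Plin2, Cyp51, Insig1 and Mx2, and overlap for P2ry12, Il1b and Sqle.

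Protease inhibitors and matrix genes bear on the known actions of tPA. Of 19 measured members 4 were called, all higher (beside 1.63% of all genes), with a list median of 0.29. Timp3, the matrix-bound tissue inhibitor of metalloproteinases, had the largest difference of any called gene with a mean of at least log2 4. Its log2 levels were 6.32, 8.08 and 9.17 in tPA-treated permanent-MCAO rats and 5.17, 5.57 and 6.27 in anesthesia rats. The groups did not overlap, and the difference of 2.29 ± 0.41 corresponds to 4.91-fold (exact p = 0.00216, adjusted p = 0.155). A second Timp3 probe set gave 2.25, and 2 dim ones gave 0.19 and 0.08.

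Vcan, versican, a proteoglycan of the matrix and a marker of classical monocytes, was at 7.16, 7.88 and 8.71 in treated and 4.70, 6.38 and 6.93 in anesthesia rats. All treated rats were above all anesthesia rats (1.61 ± 0.39, exact p = 0.00216, adjusted p = 0.295), and 4 of its 5 probe sets were called. Anesthesia rat 1 was far below the others of its group, and without it the difference was 1.30. Serpinb1a, an inhibitor of neutrophil serine proteases, differed by 0.70 ± 0.19, and its call was lost without MCAO24T rat 5, when the difference was 0.63. Adam8, a metalloprotease of leukocytes, differed by 0.77, and its call was lost without any 1 of 8 rats, with differences of 0.64 to 0.80 then. Mmp9, the gelatinase of neutrophil granules, was at 4.75, 6.87 and 7.70 in treated and 5.15, 6.94 and 7.12 in anesthesia rats, and its difference of 0.09 was not called (exact p = 0.887).

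Among 23 plasminogen and coagulation genes none was called, and their median was 0.11. The set holds the activators, receptors and inhibitors of plasminogen as well as clotting factors, most of which are made in the liver and not in blood cells.

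Genes of sterol synthesis formed a group on the lower side, in a list of 24 written after the values were seen. Cells make cholesterol from acetyl-CoA through mevalonate and squalene, and the transcription factor SREBP2 switches on the enzymes when membrane sterol is low. Of 21 measured members 20 had a negative difference, 5 were called lower (beside 0.83% of all genes) and none higher, and the median was −0.38. The mean level of the list per rat was 5.53 to 6.22 in tPA-treated permanent-MCAO and 6.19 to 6.49 in anesthesia rats.

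The promoters of Idi1, Insig1 and Cyp51 are shown because these genes were called together. Sqle and Fdft1 were called too, but no promoter sequence was available for them. Each is the 250 bases before the transcription start, from RefSeq on the GRCr8 assembly, on the strand of the gene (Idi1 at chr17:66547525-66547774, minus strand, Insig1 at chr4:8057770-8058019, minus strand, and Cyp51 at chr4:30991443-30991692, plus strand). Capitals mark CCAAT on either strand, read as ATTGG where it lies on the other, the box bound by the factor NF-Y that works beside SREBP.
Idi1: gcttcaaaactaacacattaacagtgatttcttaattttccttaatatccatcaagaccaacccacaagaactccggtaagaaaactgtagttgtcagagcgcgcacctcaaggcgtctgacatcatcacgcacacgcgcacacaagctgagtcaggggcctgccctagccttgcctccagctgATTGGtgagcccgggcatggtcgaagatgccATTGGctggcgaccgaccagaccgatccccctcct
Insig1: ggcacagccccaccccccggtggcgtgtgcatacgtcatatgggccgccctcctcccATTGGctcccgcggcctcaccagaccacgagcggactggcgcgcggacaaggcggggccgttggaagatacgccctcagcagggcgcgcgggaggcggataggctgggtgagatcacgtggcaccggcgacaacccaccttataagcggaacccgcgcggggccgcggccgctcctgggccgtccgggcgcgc
Cyp51: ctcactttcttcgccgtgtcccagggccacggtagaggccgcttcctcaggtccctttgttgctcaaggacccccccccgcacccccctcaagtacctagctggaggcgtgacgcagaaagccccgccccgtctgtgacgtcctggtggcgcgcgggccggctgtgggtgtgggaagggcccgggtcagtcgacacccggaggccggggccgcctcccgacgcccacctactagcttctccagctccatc
Idi1 held 2 such boxes, at bases −66 and −35 from the start, Insig1 held 1 at −193, and Cyp51 held 0 in this window. Among 33469 rat promoters of the same length 34.0% held at least 1 CCAAT and 9.42% at least 2. The sterol element TCACNCCAC was found in none of the 3 and in 0.974% of all promoters, searched on both strands. The letters GGGCGG were found at −127 in Cyp51 and −206 in Insig1, not in Idi1, and in 30.5% of all promoters. A match is a description of the letters and no site was measured.

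Sqle, squalene epoxidase, which makes the first oxygenated sterol precursor, had log2 levels of 3.26, 3.86 and 4.98 in treated rats, against 4.54, 5.25 and 5.67 in anesthesia rats. In 5 of 6 treated rats it lay below every anesthesia rat (−1.16 ± 0.30, exact p = 0.00866, adjusted p = 0.33). Fdft1, squalene synthase, was at 4.17, 5.21 and 5.92 in treated and 5.74, 6.25 and 6.66 in anesthesia rats (−1.08 ± 0.26, exact p = 0.00433), and its second probe set was also called. Cyp51, lanosterol demethylase, did not overlap at 6.01, 6.81 and 7.10 in treated and 7.15, 7.54 and 7.90 in anesthesia rats (−0.87 ± 0.19, exact p = 0.00216).

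Insig1, the protein that holds SREBP in the endoplasmic reticulum when sterols are plentiful and is itself an SREBP target, was at 7.78, 7.92 and 8.10 in treated and 8.23, 8.69 and 9.14 in anesthesia rats. Its groups did not overlap (−0.76 ± 0.14, exact p = 0.00216, adjusted p = 0.167). Idi1, which isomerises isopentenyl diphosphate, fell by 0.79 ± 0.18 in treated rats with 5 of 6 below all anesthesia rats. Msmo1, a sterol methyl oxidase, differed by −0.84 without a call (exact p = 0.0281), and Srebf2, the gene of SREBP2, differed by −0.27. Abca1, which exports cholesterol from cells, stands outside the list and was picked after its values were seen. It was at 5.12, 6.25 and 7.29 in treated and 3.79, 5.05 and 6.63 in anesthesia rats, a difference of 1.17 that was not called (exact p = 0.0498).

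Lipid handling showed the other direction in a pair of genes. Plin2, the coat protein of lipid droplets, was at 10.003, 10.34 and 11.26 in treated and 8.83, 9.38 and 9.68 in anesthesia rats, with no overlap (1.07 ± 0.23, exact p = 0.00216). Cpt1a, which admits fatty acids to mitochondria, was at 7.94, 8.43 and 8.57 in treated and 5.97, 7.11 and 8.33 in anesthesia rats (1.26 ± 0.33, exact p = 0.00433). These were the only called members among 14 genes of fatty acid oxidation, a list also written after the values were seen, whose median was −0.19.

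Il1b and Il1rap were the called inflammatory cytokine and receptor genes, both higher. Il1b, interleukin-1 beta, the cytokine of activated monocytes and neutrophils, had log2 levels of 10.46, 10.95 and 11.85 in treated and 9.71, 10.03 and 10.54 in anesthesia rats. Only 1 treated rat lay within the anesthesia range (0.98 ± 0.22, exact p = 0.00433, adjusted p = 0.27). Il1rap, the accessory chain of the interleukin-1 receptor, differed by 1.45 ± 0.42, and its call was lost without any 1 of 6 rats (MCAO24T rats 1, 2, 5 and 6 and anesthesia rats 1 and 3), with differences of 1.33 to 1.45. A second, dim Il1rap probe set differed by 0.03 and was not called. The signalling receptor Il1r1 and the decoy receptor Il1r2 differed by 0.58 and 0.93 and were not called. Il1r2 was at 6.97, 9.60 and 10.32 in treated and 7.74, 8.05 and 8.86 in anesthesia rats, so the treated rats enclosed the others. The whole list had 27 measured members and a median of 0.19.

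Gpnmb, a transmembrane glycoprotein of macrophages, did not overlap at 6.81, 7.36 and 8.77 in treated and 4.70, 5.92 and 6.46 in anesthesia rats (1.72 ± 0.38, exact p = 0.00216). Cd244l1, a relative of the receptor CD244 by name, was at 7.70, 8.49 and 9.38 in treated and 5.08, 6.48 and 7.83 in anesthesia rats (2.15 ± 0.46, exact p = 0.00433). Xdh, xanthine dehydrogenase, which makes uric acid, was at 12.21, 12.44 and 12.96 in treated and 11.51, 11.66 and 12.01 in anesthesia rats without overlap (0.78 ± 0.13). Itgb1, an integrin beta chain, differed by 0.52 ± 0.11 and was called, but its second probe set differed by 0.29 and was not. The leukocyte integrin Itgb2 differed by 0.36 and was not called (exact p = 0.0173). Of 17 adhesion genes 3 were called higher, Cd44, Itgb1 and the dim Esam, and Cd99 was called lower (beside 1.63% and 0.83% of all genes). The calls of Cd44 (brightest probe set), Esam and Cd99 were lost without any 1 of 6, 6 and 9 rats, at differences of 0.39 to 0.44, 0.80 to 0.95 and −0.47 to −0.37.

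Of the defining neutrophil markers, the calprotectin genes were not called. S100a8 and S100a9, the calprotectin subunits that fill neutrophils, differed by 0.01 and 0.06 (exact p = 0.994 and 0.836), with treated rats at 12.36 to 13.69 and anesthesia rats at 12.77 to 13.70 for S100a8. Of 18 neutrophil markers 14 had a positive difference, the median was 0.35, and 1 was called. That was Alox5ap, the partner of 5-lipoxygenase (0.85, exact p = 0.0152), whose call was lost without any 1 of 10 rats at differences of 0.71 to 0.87. Csf3r, the G-CSF receptor, differed by 0.86 without a call (exact p = 0.013). Monocyte markers had a median of 0.08, and Vcan was the only 1 of 19 called, while Cd14 differed by 0.84 without a call.

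Genes that respond to low oxygen were called in 4 of 20 cases, all higher (beside 1.63% of all genes), with a list median of 0.04. P4ha1, a collagen prolyl hydroxylase, had log2 levels of 5.09, 6.12 and 6.82 in treated and 4.29, 4.99 and 5.25 in anesthesia rats (1.16 ± 0.27, exact p = 0.00649). Ndrg1 was at 8.04, 8.27 and 8.72 in treated and 6.84, 7.60 and 8.18 in anesthesia rats (0.81 ± 0.21, exact p = 0.00649). Ldha, which turns pyruvate into lactate, was at 11.01, 11.23 and 11.47 in treated and 10.69, 10.87 and 11.11 in anesthesia rats (0.36 ± 0.10, exact p = 0.00649). In each of these genes at least 4 of 6 treated rats lay above the whole anesthesia range. The call of Pfkfb3, a glycolytic regulator (0.59), was lost without any 1 of 8 rats, with differences of 0.50 to 0.63. With naive rats as control P4ha1, Ndrg1 and Pfkfb3 differed by 0.60, 0.24 and 0.21 and were not called. With the hybridization control signal, a measure of array quality, as a covariate the calls of Ldha (0.32) and Pfkfb3 (0.47) were lost. Both calls were also lost without dim probe sets and with the replicate number as a block.

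The promoter of Ldha is shown because its known control by hypoxia-inducible factor runs through the core ACGTG. It lies at chr1:106507842-106508091 of GRCr8 on the plus strand (RefSeq), and capitals mark ACGTG or its reverse CACGT.
Ldha: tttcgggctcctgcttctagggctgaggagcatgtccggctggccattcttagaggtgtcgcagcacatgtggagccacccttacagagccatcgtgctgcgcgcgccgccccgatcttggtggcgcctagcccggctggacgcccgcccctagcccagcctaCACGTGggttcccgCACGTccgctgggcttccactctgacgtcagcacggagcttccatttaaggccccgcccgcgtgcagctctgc
It held 3 matches, 2 of them overlapping in a single palindrome, at bases −87, −86 and −73. ACGTG was present in 16.6% of all promoters of this length and at least 2 times in 6.53%, both strands counted. The P4ha1 promoter window held 0 matches, and that of Pfkfb3 held 2 in a single palindrome, at bases −42 and −41. No promoter sequence was available for Ndrg1.

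Fkbp5, a co-chaperone of the glucocorticoid receptor that glucocorticoids induce, was at 7.35, 7.88 and 8.35 in treated and 6.62, 6.83 and 7.14 in anesthesia rats. No treated rat came down to the anesthesia range (1.00 ± 0.17, exact p = 0.00216, adjusted p = 0.15). It was the only called member of 17 glucocorticoid-induced genes, whose median was 0.33, beside which none of 17 clock genes was called.

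B cell and antigen presentation genes were on the lower side with few calls. Of 14 B cell markers 13 had a negative difference and 0 were called, and the median was −0.67. The mean level of the list per rat was 7.55, 7.82 and 8.73 in treated and 8.11, 8.52 and 9.35 in anesthesia rats. Cd79b, a chain of the B cell receptor, was at 8.67, 9.55 and 10.52 in treated and 10.001, 10.43 and 11.01 in anesthesia rats (−0.83, exact p = 0.0238, not called). Ms4a1, the CD20 antigen, differed by −0.70 (exact p = 0.0325, not called). Values of both were lower in most treated rats and overlapped with the anesthesia group.

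Cd40, the co-stimulatory receptor of B cells and other presenting cells, was at 5.22, 5.97 and 7.01 in treated and 6.51, 7.18 and 7.92 in anesthesia rats. In 5 of 6 treated rats it was below all anesthesia rats (−1.12 ± 0.32, exact p = 0.00866, adjusted p = 0.416), and the call was lost without MCAO24T rats 4 or 6 or anesthesia rats 1, 3 or 5, at differences of −1.09 to −0.97. RT1-DMa, which loads peptides onto class II molecules, was the 1 called of 9 class II genes (−0.70), and its call was lost without any 1 of 10 rats at −0.73 to −0.59. The class II median was −0.56. RT1-Bb, a class II beta chain that differs between rat haplotypes, was at 2.26, 9.44 and 11.43 in treated and 9.97, 10.86 and 12.02 in anesthesia rats, and its difference of −3.30 was not called (exact p = 0.0541). Its other probe set differed by 3.26 in the opposite direction, so neither is read as a level of the gene. T cell markers showed a median of −0.01 with 0 of 22 called, and Cd3e differed by 0.06 (exact p = 0.907).

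Interferon-induced genes were lower in 3 called members of 26 (beside 0.83% of all genes), with 20 negative and a median of −0.25. Mx2, an antiviral GTPase, did not overlap at 3.05, 4.14 and 4.34 in treated and 4.57, 4.85 and 5.62 in anesthesia rats (−1.07 ± 0.26, exact p = 0.00216). Its second probe set was dim and differed by 0.29. Dtx3l, a ubiquitin ligase, was also apart at 10.83 to 11.09 in treated and 11.19 to 11.79 in anesthesia rats (−0.45 ± 0.12). Rsad2, viperin, differed by −0.34, and its call was lost without any 1 of 7 rats at −0.34 to −0.26. Isg15, a ubiquitin-like modifier, differed by −1.27 without a call (exact p = 0.0368).

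Rtp4, an interferon-induced chaperone of receptors that stands outside the list, was at 5.44, 6.14 and 7.38 in treated and 7.09, 7.59 and 8.10 in anesthesia rats. It was lower than every anesthesia rat in 5 of 6 treated rats (−1.40 ± 0.31, exact p = 0.00649, adjusted p = 0.244). Parp12, picked after its values were seen, was at 8.15, 8.30 and 8.85 in treated and 8.43, 9.43 and 10.002 in anesthesia rats (−0.96 ± 0.23).

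Oxidative phosphorylation had the most called members of any list. Of 34 measured genes for the respiratory chain and ATP synthase, 31 had a negative difference and the median was −0.32. Of these genes 8 were called lower (beside 0.83% of all genes) and none higher. The mean level per rat was 9.36 to 9.52 in tPA-treated permanent-MCAO and 9.55 to 9.86 in anesthesia rats, 2 ranges that did not overlap. Ndufv2, a core subunit of complex I, was at 7.90, 8.17 and 8.50 in treated and 8.44, 8.68 and 8.82 in anesthesia rats (−0.48 ± 0.10, exact p = 0.00433). Ndufb3, an accessory subunit of that complex, was at 10.54, 10.77 and 10.95 in treated and 10.95, 11.11 and 11.42 in anesthesia rats (−0.40 ± 0.09). In both genes 5 of 6 treated rats were below all anesthesia rats.

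The cytochrome oxidase subunits Cox6c, Cox7c and Cox5b fell by 0.69, 0.32 and 0.55, and the ATP synthase subunit Atp5pf fell by 0.53. Ndufb8 and Ndufa4 fell by 0.69 and 0.30. Cox5b, Atp5pf, Ndufb8 and Ndufa4 were picked as called members of the list after their values were seen. The calls of Cox5b, Ndufb8 and Ndufa4 were lost without any 1 of 8, 5 and 9 rats, at differences of −0.57 to −0.44, −0.65 to −0.62 and −0.31 to −0.25. Hybridization control signal was 11.40 to 12.44 in treated and 11.79 to 12.37 in anesthesia rats, and with this signal as a covariate 7 of the 8 calls were kept and that of Cox5b was lost, at −0.35. With naive rats as control the calls of Cox6c, Ndufb8 and Cox5b were lost, at −0.38, −0.20 and −0.28. With the replicate number as a block those of Cox6c, Ndufa4, Ndufb8, Cox5b and Atp5pf were lost. Without dim probe sets those of Ndufb3, Cox7c, Ndufa4 and Cox5b were lost. Of the called members only Ndufv2 kept its call in every setting run. Ribosomal protein genes had a median of −0.02 with 0 of 28 called.

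**Figure D2:**
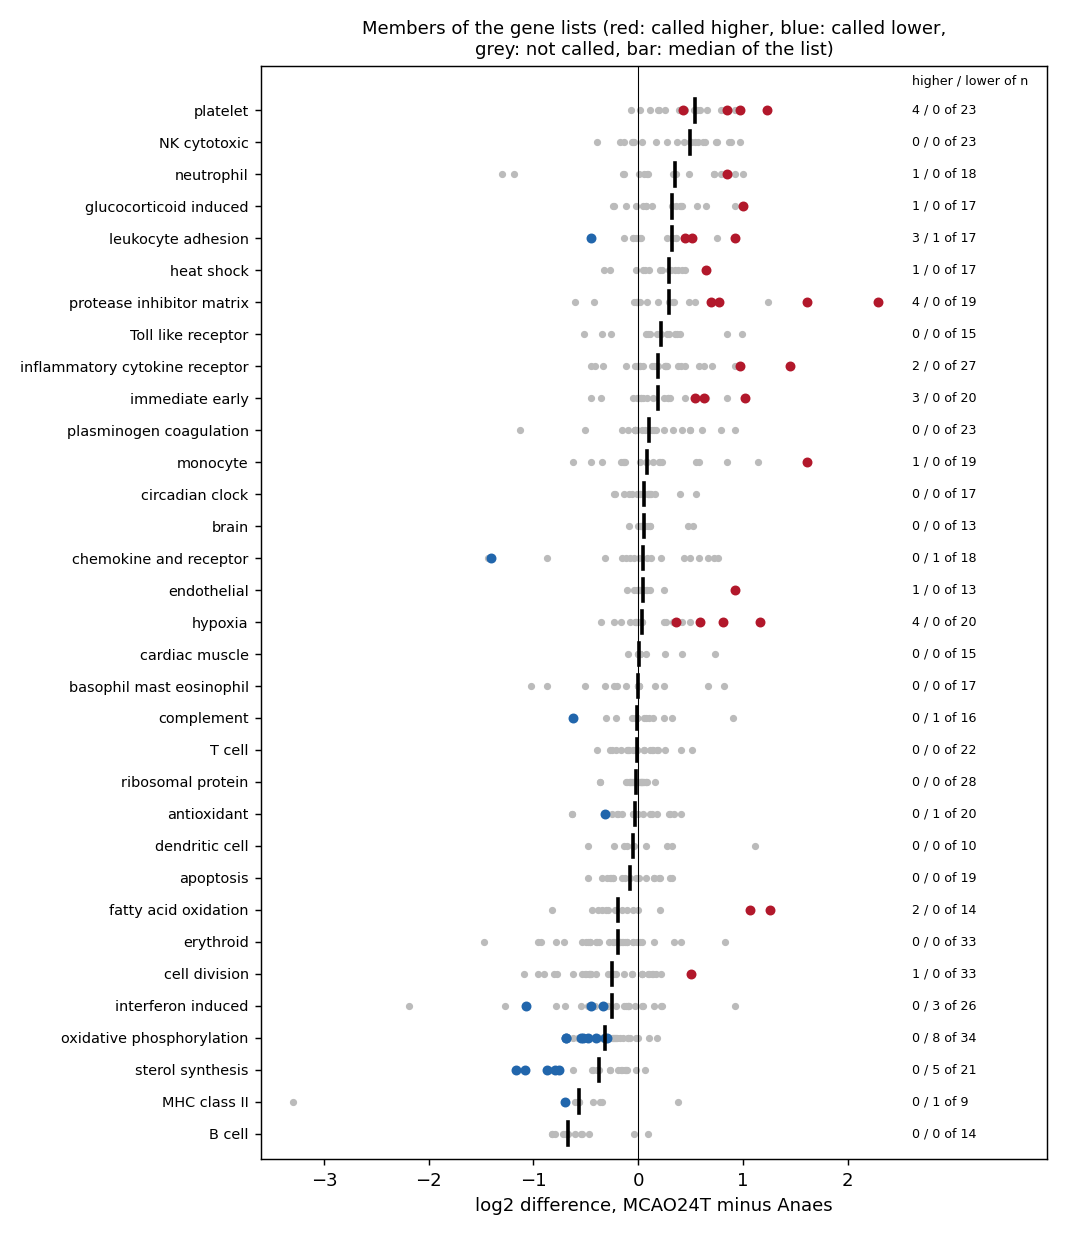
Log2 difference (horizontal axis, MCAO24T minus Anaes) of each measured member of 33 gene lists, where red points are members called higher, blue points members called lower, grey points members not called and black bars list medians. Platelet genes sit right of 0 with a median of 0.54, while oxidative phosphorylation, sterol synthesis and B cell genes sit left of it at −0.32, −0.38 and −0.67.

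The effect of tPA within permanent MCAO was tested on the 12 arrays of MCAO24T and MCAO24, since both groups otherwise share the anesthesia rats. There, 100 probe sets were called (0.322%), 56 higher and 44 lower in tPA-treated rats. No probe set passed adjustment in limma (smallest adjusted p = 0.893), and 717 had an unadjusted p under 0.05. A p of at most 0.01 alone is met by 310 of 31042 probe sets where nothing differs.

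By the smallest p among called genes, 6 were named, and all kept their call when each rat was left out. They were chosen on these same arrays, so the kept calls are not independent support. Cuedc2 was at 6.97, 7.29 and 7.54 in tPA-treated and 7.54, 7.98 and 8.12 in untreated permanent-MCAO rats (−0.63, exact p = 0.00433). Tnfrsf21, death receptor 6, was apart at 4.74, 4.95 and 5.46 in tPA-treated and 3.27, 4.27 and 4.52 in untreated rats (0.93, exact p = 0.00216). Tmem268 and Eea1, an endosomal tether, did not overlap either, with differences of −0.70 and 0.64. Aif1, a calcium-binding protein of macrophages known as Iba1, was at 8.76, 8.96 and 9.49 in tPA-treated and 9.39, 9.59 and 10.11 in untreated rats (−0.65, exact p = 0.00649). Ptpra, a receptor tyrosine phosphatase, differed by 0.49.

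Jag1, a ligand of Notch, was at 4.15, 4.93 and 5.82 in tPA-treated permanent-MCAO rats, against 5.21, 6.13 and 6.89 in untreated permanent-MCAO rats. The groups overlapped (−1.17, exact p = 0.013), and the call was lost without any 1 of 8 rats, at differences between −1.35 and −1.01 over all 12 omissions. Against anesthesia Jag1 differed by 0.12 in tPA-treated rats, beside 1.29 in untreated permanent-MCAO rats, which share those controls. Rtp4 was at 5.44, 6.14 and 7.38 in tPA-treated and 6.78, 7.12 and 8.23 in untreated rats (−1.08, exact p = 0.0152), and its call was lost without any 1 of 9 rats, between −1.32 and −0.89 over all omissions. Slpi, a leukocyte protease inhibitor, and Csf1, the macrophage growth factor, differed by −0.75 and −0.79 without a call (exact p = 0.0281 and 0.0217).

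Set side by side against the same anesthesia rats, tPA-treated and untreated permanent MCAO gave close values for some genes and not for others, and untreated permanent MCAO called 862 probe sets (2.78%). Sqle differed by −1.16 with tPA and −1.11 without, Fdft1 by −1.08 and −0.99, Gpnmb by 1.72 and 1.90, and Il1b by 0.98 and 1.10. For Timp3 the values were 2.29 and 1.17, for Clu 0.97 and 0.48, for Itgb3 0.85 and 0.36, and for P2ry12 1.23 and 0.54. The direct test of tPA-treated against untreated called none of these 8 genes, with differences of 1.12 for Timp3 (exact p = 0.0541), 0.49 for Clu, 0.49 for Itgb3 and 0.69 for P2ry12. List medians against anesthesia were 0.54 and 0.34 for platelets, −0.38 and −0.37 for sterol synthesis, −0.32 and −0.11 for oxidative phosphorylation and 0.35 and 0.80 for neutrophils. A lower oxidative phosphorylation median was not particular to permanent MCAO. Against the same anesthesia rats it was −0.23 in reperfused-MCAO with tPA and −0.22 in tPA without MCAO. Of the neutrophil markers 6 were called in untreated permanent MCAO. The direct test of tPA-treated against untreated permanent MCAO called 0 members of these lists. Its medians were 0.25 for platelets, 0.05 for sterol synthesis, −0.17 for oxidative phosphorylation and −0.34 for neutrophils. Against naive rats the neutrophil medians were 0.05 with tPA and 0.28 without.

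**Figure D3:**
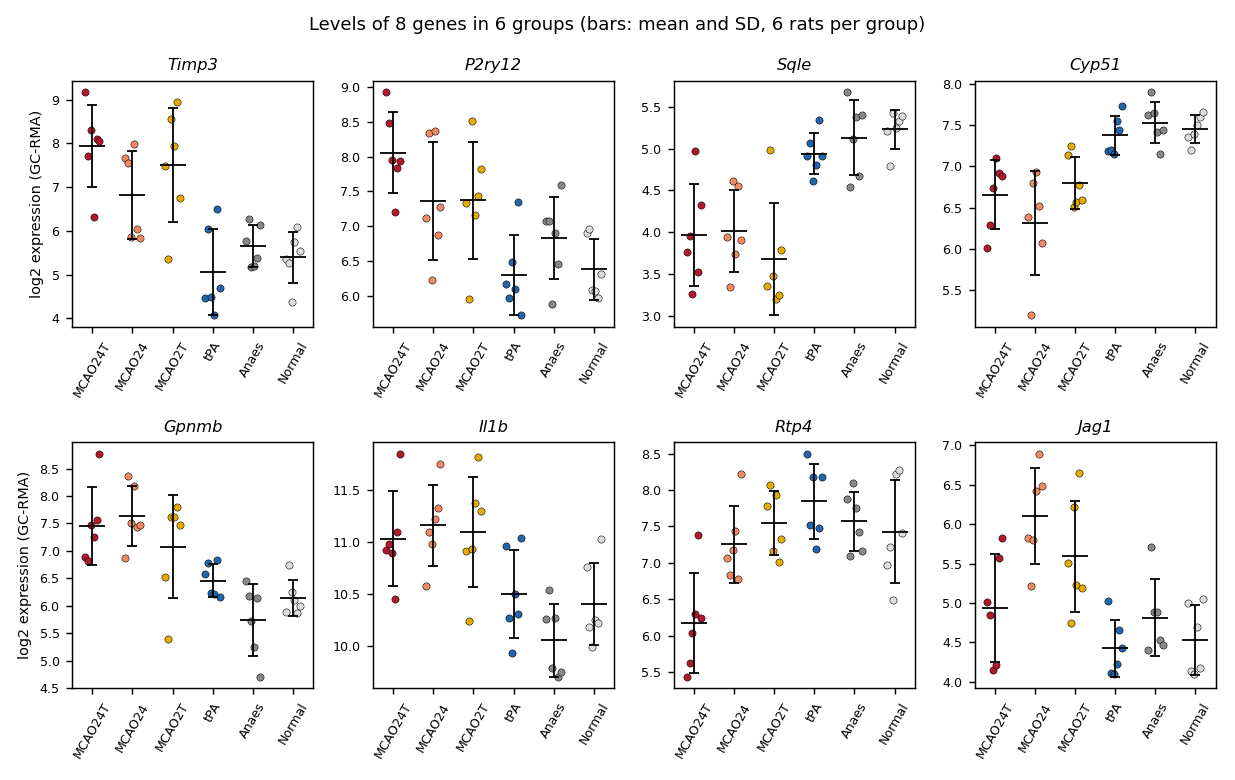
Log2 expression (GC-RMA, vertical axis) of 8 genes in 6 groups of 6 rats, where points are rats and bars are mean and SD. The means of Sqle and Cyp51 are lower and that of Gpnmb higher in the 3 MCAO groups (left) than in tPA, anesthesia and naive rats, while Rtp4 is lowest in MCAO24T with a mean of 6.17 and Jag1 is highest in MCAO24 with a mean of 6.11.

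To set the treated rats beside a stroke profile from other arrays, probe sets were chosen in untreated permanent MCAO against naive rats and then read in tPA-treated permanent MCAO against anesthesia. These 2 comparisons share no array. Of 400 probe sets higher in the first (1.29%), 75 were called higher in tPA-treated rats and 0 lower, 87.3% had a positive difference, and the median was 0.48. Of 700 lower in the first (2.26%), 23 were called lower and 0 higher, 66.3% had a negative difference, and the median was −0.09. Over all probe sets 55.0% were positive and the median was 0.0053. Naive rats had no anesthesia before the blood draw, so the first comparison also holds anesthesia.

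In the other direction, 88.0% of the 409 probe sets higher in tPA-treated rats were positive in untreated permanent MCAO against naive rats, with a median of 0.38, and 85.8% of the 162 lower ones were negative, with a median of −0.25. The 75 were 18.8% of the 400 and 18.3% of the 409, and the 23 were 3.29% of the 700 and 14.2% of the 162. Timp3 differed by 2.29 in tPA-treated rats against anesthesia and by 1.43 in untreated rats against naive, Vcan by 1.61 and 1.14, and Opn3, an opsin, by 1.65 and 1.30. On the lower side Sqle differed by −1.16 and −1.21, Fdft1 by −1.08 and −1.03, Cd40 by −1.12 and −1.06, and Rnase6, a ribonuclease of myeloid cells picked after its values were seen, by −1.02 and −1.18. The counts depended on single rats. Without MCAO24T rat 4, 128 and 40 probe sets were called in place of 75 and 23. Without MCAO24T rat 5 the 75 became 52, and without anesthesia rat 3 the 23 became 18.

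**Figure D4:**
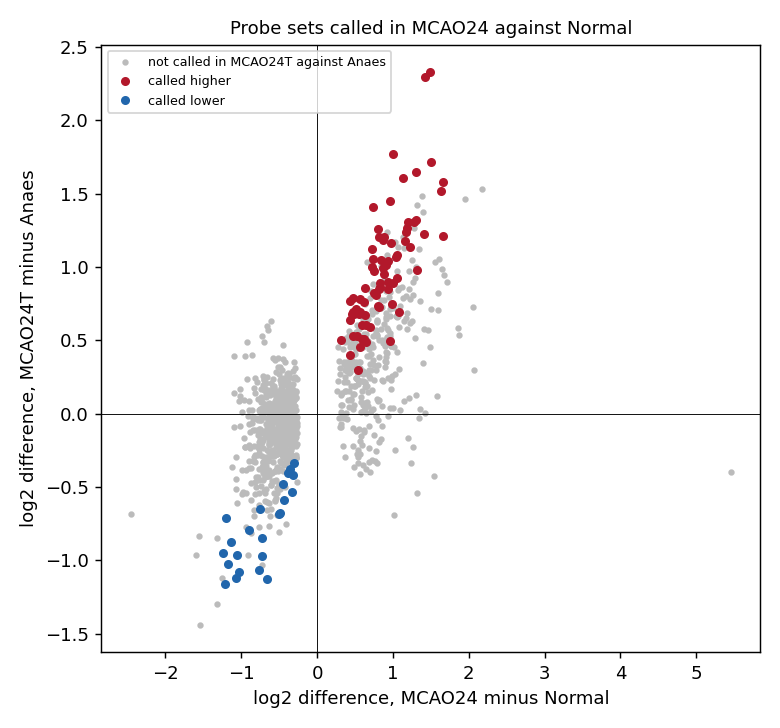
Log2 difference in MCAO24T minus Anaes (vertical axis) against MCAO24 minus Normal (horizontal axis) for the probe sets called in MCAO24 against Normal, where each point is a probe set and red or blue marks those also called in MCAO24T against Anaes. The 75 red points lie in the upper right and the 23 blue points in the lower left, and none lies in the remaining corners.

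Against reperfused-MCAO with tPA, 103 probe sets were called (0.332%), 43 higher and 60 lower in permanent MCAO. None passed adjustment in limma (smallest adjusted p = 0.623), and 622 had an unadjusted p under 0.05. Where nothing differs, a p of at most 0.01 alone is met by 310 probe sets. That count has no fold threshold, which the 103 also met, so the 2 are not on the same footing. Interferon-induced genes had a list median of −0.52 in this comparison. Mx2 differed by −1.14 without overlap (exact p = 0.00216), Rtp4 by −1.38 and Isg15 by −1.36 (exact p = 0.00866 each), and all 3 were called. Timp3, Clu, Sqle, Cyp51, Gpnmb and Il1b were not called between these groups, at 0.45, 0.36, 0.29, −0.15, 0.38 and −0.06.

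Against tPA without MCAO, 2078 probe sets were called (6.69%), 629 higher and 1449 lower in permanent MCAO with tPA, and 9 passed adjustment. The sources used here do not say whether the tPA rats were anesthetized before the blood draw, so differences from that group may also hold anesthesia. Hybridization control signals were 11.40 to 12.44 in MCAO24T and 9.72 to 11.69 in tPA, and with this signal as a covariate 448 probe sets were called. Timp3 averaged 7.95 ± 0.93 in tPA-treated permanent-MCAO and 5.05 ± 0.98 in tPA rats (SD, n = 6, difference 2.90, exact p = 0.00433), and Clu differed by 1.44 (adjusted p = 0.038, limma). Sqle, Fdft1 and Cyp51 were called lower, with differences of −0.97, −1.22 and −0.72. In tPA without MCAO against anesthesia, 4267 probe sets were called and 3884 passed adjustment. Hybridization control signals of these groups did not overlap (9.72 to 11.69 and 11.79 to 12.37), and their part in the calls was not tested. List medians there included −1.18 for erythroid, −0.75 for cell division, 0.74 for T cell and −0.47 for platelet genes. Timp3 differed by −0.60, Clu by −0.47, Sqle by −0.19 and Cyp51 by −0.16.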

How the data were processed

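Whole-blood RNA of 42 rats was amplified with NuGEN Ovation reagents and hybridized to 1 Affymetrix whole-genome rat array each. The authors made the deposited log2 values with GC-RMA in Partek, and these were used without further scaling. The 57 control probe sets were left out. Probe sets were named through the platform annotation and the GRCr8 gene table, giving 20826 with 1 symbol, 436 with several and 9780 with none. A gene was read from its brightest probe set over all arrays, and probe sets with a mean under log2 4 are called dim. Pairs of groups were fitted in limma 3.58.1 (R 4.3.3) on their own 12 arrays, two-sided, with Benjamini-Hochberg adjustment over all probe sets. Exact p values are two-sided and come from all 924 divisions of the 12 rats. The fits were tested on simulated data. Genes named are the 12 highest and 12 lowest called, the 4 smallest p of each list, genes the study names, defining markers, and the 6 smallest p between MCAO24T and MCAO24. Further called members of the lists were added after their values were seen. Other genes are marked as picked after their values were seen. Only some of all these genes are printed. The members and lists were chosen with earlier results of these data known. The number of arrays limits the precision. Alternatives were all 42 arrays in 1 fit, array weights, an intensity trend, other scalings, no dim probe sets, the methods' test without shared variance, the hybridization control level (mean of 14 probe sets) as a covariate, a replicate block, naive controls, a fold of 1.5, and omission of each rat.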

Additional observations from a re-analysis of the deposited data

Results flagged for a closer look

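Some values stood apart within their own group of 6 rats. Of 214 groups of values examined (a gene or array measure in 1 group), 16 had a rat whose gap to the nearest other exceeded the 95% limit of Dixon's test, and chance alone marks about 1 in 20 groups. Of these, 5 belonged to MCAO24T rat 4 and 2 to MCAO24T rat 1.

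In MCAO24T rat 4, Myh6 was at 6.04 (others 2.25 to 2.90) and the heart muscle gene Mb at 4.38 (others 2.13 to 2.40). In the same rat S100a8 was lowest at 12.36 (others 13.19 to 13.69), Atp5pf lowest at 8.49 (8.95 to 9.09) and Ndufa4 highest at 9.99 (9.51 to 9.65). MCAO24T rat 1 had the lowest mean correlation with its group, 0.962 (others 0.974 to 0.980), and the lowest Cpt1a, 7.94 (8.34 to 8.57). MCAO24T rat 5 had the highest Pde6h, 10.96 (8.70 to 9.51), and MCAO24T rat 6 the highest Gzma, 11.38 (9.59 to 10.24).

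Anesthesia rat 1 was lowest for Vcan at 4.70 (others 6.12 to 6.93), for St3gal5 at 9.71 (10.69 to 11.20) and for Aif1 at 8.71 (9.49 to 9.93), and highest for Slc6a4 at 9.79 (8.76 to 9.01). Its hybridization control level was the lowest of its group at 11.8 (12.2 to 12.4), as was its mean correlation at 0.981 (0.985 to 0.987). Anesthesia rat 2 had the highest Jag1 at 5.71 (4.41 to 4.89).

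The direct test between tPA-treated and untreated permanent MCAO called 8 named genes. The differences, MCAO24T minus MCAO24 on the log2 scale, were −1.17 for Jag1, −1.08 for Rtp4, −0.70 for Tmem268, −0.65 for Aif1, −0.63 for Cuedc2, 0.49 for Ptpra, 0.64 for Eea1 and 0.93 for Tnfrsf21. Their adjusted p values were 0.893 or above (limma, Benjamini-Hochberg).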

How the results depend on the processing

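No gene named here as called against anesthesia turned its direction under any alternative. Of 71 such genes, 49 kept their call when each rat was left out in turn, 28 of these under every setting run on single genes (the fold of 1.5 was not), and 56 when MCAO24T rats 1 and 4 were left out together (chosen after seeing the data). Calls lost were 29 with the replicate block, 29 with naive rats as control, 18 with the hybridization control level as a covariate and 13 with the methods' test, and between 2 and 12 with each other setting. Naive controls ended those of Fancl, St3gal5, Mx2, Vcan, Il1b, P4ha1, Ndrg1, Cox6c, Ptpra, Plin2 and Parp12, which no single omission ended.

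The 571 probe sets called against anesthesia became 958 with all 42 arrays in 1 fit, 1653 with array weights, 894 with the hybridization covariate (453 higher, 441 lower), 891 without MCAO24T rats 1 and 4, and 365 at a fold of 1.5. Leaving out 1 rat gave 404 to 760. The 2 probe sets past adjustment became 65 in 1 fit of all arrays, 101 with weights and 21 with the covariate, and 0 with a trend, centring, no dim probe sets, the methods' test, rats 1 and 4 left out or naive controls. Leaving out 1 rat gave 0 to 9, the most without MCAO24T rat 4. With naive controls 168 and 55 probe sets did not overlap, in place of 108 and 35.

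Against MCAO24 the count of 100 became 245 with all arrays, 231 with weights, 49 without dim probe sets, 62 with the methods' test, 169 with the covariate, 180 with the replicate block and 45 at a fold of 1.5. Leaving out 1 rat gave 62 (without MCAO24 rat 6) to 182 (without MCAO24T rat 1). Against MCAO2T the 103 became 162, 207, 63, 180 and 40 with all arrays, weights, no dim probe sets, the covariate and a fold of 1.5, and 85 to 173 without 1 rat (173 without MCAO24T rat 5). Centring left 31.0% of these calls higher, beside 41.8%. Against tPA the 2078 became 4194 with all arrays and 448 with the covariate, and 1342 (without tPA rat 3) to 2442 without 1 rat. Centring made 41.4% of those calls higher, beside 30.3%. Probe sets of the separate stroke profile called in tPA-treated rats were 52 to 128 (higher) and 18 to 40 (lower) without 1 rat. The cause of these changes was not tested.

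In the difference between MCAO24T and anesthesia, direction turned only for genes without a call in that comparison. With naive controls RT1-Bb was 0.48, Mmp9 −0.16, Cd3e −0.32, S100a8 −0.36, S100a9 −0.35 and Tmem268 −0.33. Cd3e was −0.21 with the covariate and S100a8 −0.0060 after centring. Without 1 rat Mmp9 was −0.19 to 0.47, Jag1 −0.055 to 0.30, Cd3e −0.11 to 0.33, S100a8 −0.083 to 0.18, S100a9 −0.054 to 0.25 and Tmem268 −0.035 to 0.19. Rats of the same number in MCAO24T and anesthesia did not deviate together (correlations of −0.47 to 0.10). This check covers only these groups and cannot show what the number stands for. With the replicate block 432 probe sets were called against anesthesia.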

Other observations

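Natural killer and cytotoxic genes had no call among 23 measured members, with 17 positive and a median of 0.49. Gzmb, a granzyme, was at 6.80, 7.52 and 8.51 in tPA-treated permanent-MCAO and 5.58, 6.90 and 7.21 in anesthesia rats (0.97, exact p = 0.0281), and its second probe set was called. Prf1, perforin, differed by 0.64 (exact p = 0.026), also without a call. Erythroid genes had 27 of 33 negative differences, a median of −0.19 and no call. Alas2, the heme synthesis enzyme of red cells, differed by −0.05, and Car1, a carbonic anhydrase of red cells, by −1.47 at 6.91, 7.41 and 9.95 in treated and 8.51, 9.72 and 10.39 in anesthesia rats (exact p = 0.0455, not called).

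Of 20 immediate early genes 3 were called higher (beside 1.63% of all genes), the transcription factors Jun (1.02) and Atf3 (0.54) and the mRNA decay factor Zfp36 (0.63). Their calls were lost without any 1 of 7, 2 and 9 rats, at 0.81 to 1.05, 0.51 (without anesthesia rat 4 or MCAO24T rat 4) and 0.51 to 0.65. Hsph1, a heat shock protein, was called alone among 17 of its list at 0.65 ± 0.17. Basophil and mast cell, dendritic, Toll-like receptor and apoptosis genes had no call in 17, 10, 15 and 19 members, and complement, chemokine and antioxidant genes had 1 each, all lower (Cd59b −0.62, Ccl9 −1.41 and Txn1 −0.32). Those 3 calls were lost without any 1 of 9, 5 and 9 rats, at −0.66 to −0.50, −1.37 to −1.26 and −0.33 to −0.28. Kif20a, a kinesin of dividing cells, was the only call among 33 cell division genes (0.51, lost without any 1 of 8 rats at 0.43 to 0.53). None of 13 brain genes was called, and 12 of them were dim.

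Outside the lists, Dennd2c was at 5.90, 7.45 and 8.77 in treated and 4.86, 5.09 and 5.96 in anesthesia rats (2.07 ± 0.41, exact p = 0.00433). Cttn, the actin-binding protein cortactin, was at 5.48, 6.47 and 7.39 in treated and 4.42, 4.82 and 5.42 in anesthesia rats without overlap (1.54 ± 0.33, exact p = 0.00216). Sema6d, a semaphorin, was also apart (1.54 ± 0.38). On the lower side Fancl, the ubiquitin ligase of the Fanconi pathway, was at 6.48, 8.29 and 9.39 in treated and 9.49, 9.74 and 10.13 in anesthesia rats (−1.60 ± 0.40, exact p = 0.00216). Against naive rats Fancl was not called, and tPA without MCAO differed from anesthesia by −1.78 for this gene. Fcf1, a ribosome assembly factor picked after its values were seen, was at 10.71, 10.74 and 10.86 in treated and 11.06, 11.11 and 11.34 in anesthesia rats (−0.40 ± 0.05, adjusted p = 0.053, limma). St3gal5, which makes the ganglioside GM3, differed by −1.23 ± 0.32, and Atp6v1g3, a proton pump subunit, by −1.44 ± 0.32.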
